A study of Caenorhabditis elegans with 9 samples.

Results

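The eggshell of Caenorhabditis elegans is made by the oocyte and the newly fertilised egg. The 10 genes described here encode parts of it, its chitin synthase, and proteins of the oocyte cortex and membrane. The parts are the vitelline layer proteins CBD-1, PERM-2 and PERM-4 and the chondroitin proteoglycans CPG-1, CPG-2 and CPG-3. The others are the chitin synthase CHS-1, the cortical protein EGG-3 and the oocyte membrane proteins EGG-1 and EGG-2. The 10 genes were taken by gene name from a deposited table of 46986 genes. All 10 were found and passed the filter on low values (1 FPKM or more in 3 or more libraries), as did 14730 genes in all. FPKM is the number of sequenced fragments per kilobase of gene, scaled to a size given to the library. Here that size was not the sum of the library's reads on genes. Expression was measured in whole animals by RNA sequencing, in 9 libraries that form 3 groups of 3: FA animals on a high-fat diet with farrerol, a plant flavanone, HFD animals on the high-fat diet alone, and OP animals as controls. Per the series title the fat accumulation was induced with citrate. The sources used here do not give strain, age, dose or duration, nor whether replicates were separate cultures. The p-values therefore reflect only how these libraries vary, and that variation may be technical. Replicates are written as FA 1 to FA 3, HFD 1 to HFD 3 and OP 1 to OP 3.

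In the worm the outer vitelline layer is already present on the mature oocyte. After fertilisation cortical granules release their contents, a chitin layer and an inner proteoglycan layer are laid down beneath it, and a lipid-rich permeability barrier forms inside them and protects the embryo. Messenger RNAs for these proteins are held in germline cells of the adult gonad, oocytes among them. In whole animals their level follows both how many such cells there are and how much of each RNA they hold. In these bulk samples fewer such cells and less RNA per cell cannot be told apart.

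The libraries held 17514542 to 21419867 reads on genes, and single members were covered by 158 to 11147 reads in a library. The summed FPKM of the 10 genes was 421, 210.2 and 229.8 in FA replicates 1 to 3, 461, 352 and 409 in HFD, and 814, 1211 and 1238 in OP. All 6 libraries on the high-fat diet lay below the 3 controls. A pair of libraries lay apart from their groups. OP replicate 1 was the lowest control for 10 of 10 members, at 0.496 to 0.808 times the mean of the other OP libraries. FA replicate 1 was the highest FA library for 10 of 10, at 1.32 to 2.56 times the mean of the other FA libraries, and it lay within the range of the HFD libraries for all 10. HFD replicate 1 was the highest HFD library for 9 of 10. Results that rest on these libraries are given with and without them.

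Compared with OP, all 10 members fell in HFD: perm-2 and perm-4 by the most, 4.02-fold and 2.87-fold between the FPKM means, and egg-3 by the least, 1.94-fold. The median log2 fold change of the members was -1.17, against 0.01 over all genes tested. Each of the 10 passed an adjusted p of 0.05 in limma, where 4.62% of all genes tested were called lower and 2.74% higher. The HFD and OP libraries did not overlap for any of the 10, and 16.6% of all genes had HFD libraries entirely below OP. Without the filter on low values 2 of the 10 passed, perm-2 and egg-2 (limma adjusted p = 0.033 and 0.0446), and the other 8 had adjusted p of up to 0.0957, where 1.21% of all genes were called lower. The number of members called depended on single libraries, as did the share of all genes called lower. When OP 2, OP 3 or HFD 2 was omitted, 1 of 10 was called, beside 0.761%, 1.15% and 1.22% of all genes. It was 3 when HFD 3 was omitted (2.5% of all genes) and 7 when HFD 1 was (2.82%). All 10 were called when OP 1 or any FA library was omitted (3.44% to 6.83%). With any 1 library left out all 10 members had an unadjusted limma p under 0.05. Of all genes, 15.3% to 23.5% had one in either direction. The direction was negative for every member each time, with medians of -1.45 to -1.04, and perm-2 was the only member called with any 1 of the 9 libraries left out.

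**Figure D1:**
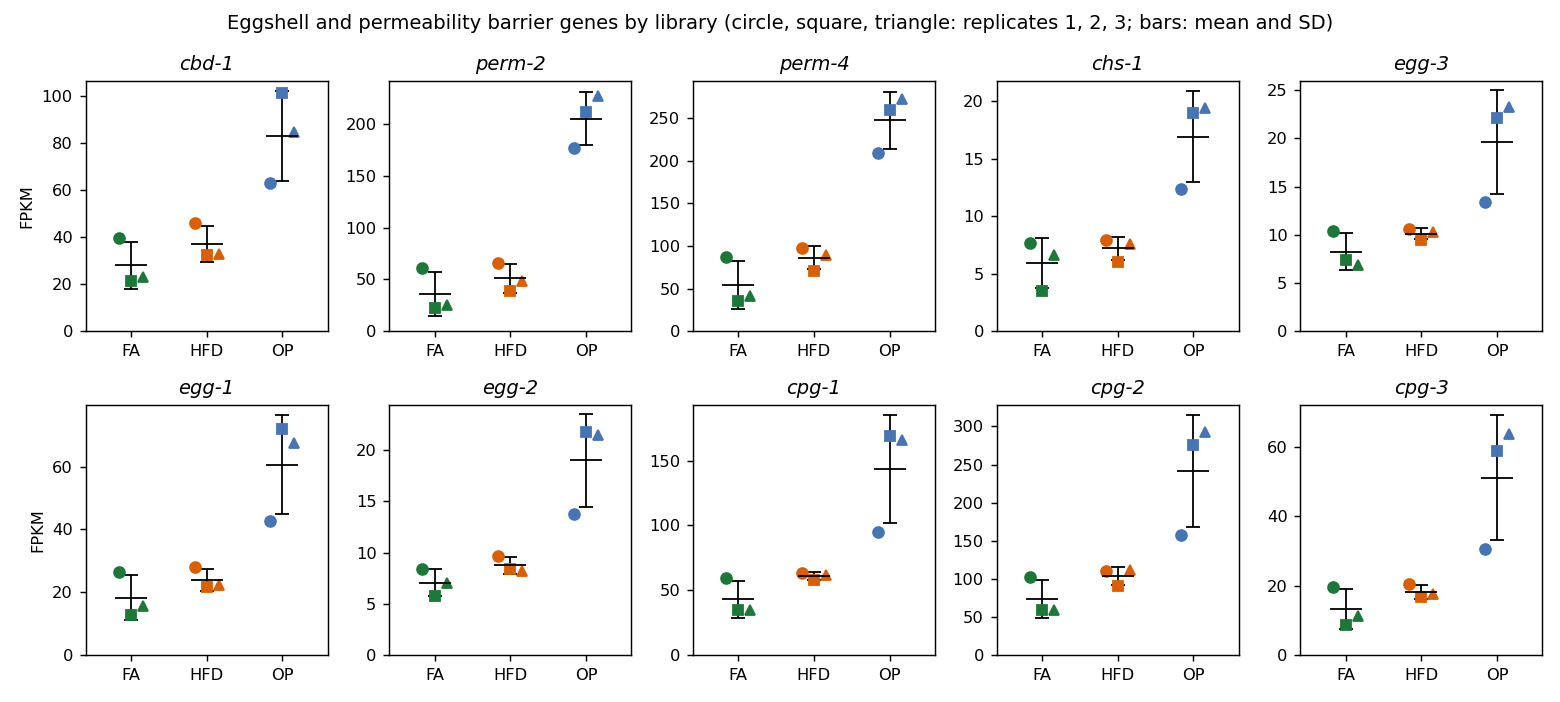
FPKM (vertical axis, linear from 0, with its own scale in each panel) of the 10 genes in FA, HFD and OP animals. Circles, squares and triangles are replicates 1, 2 and 3, and bars show the mean and SD of 3 libraries; in every panel the 3 OP libraries lie above all FA and HFD libraries, OP replicate 1 is the lowest OP point and FA replicate 1 the highest FA point.

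The vitelline layer is the outermost part of the eggshell. CBD-1, a protein with many chitin-binding domains that the other vitelline proteins depend on, is encoded on chromosome IV at 11372991 to 11377627 of the WBcel235 build (WBGene00010351, plus strand, 10 exons, 1319 codons). Expression of cbd-1 was 39.4, 21.5 and 22.96 FPKM in the FA libraries, 45.9, 32.4 and 32.8 FPKM in HFD, and 63.1, 101 and 84.4 FPKM in OP. Its HFD mean of 36.99 ± 7.68 FPKM lay 2.24-fold below the OP mean of 83.0 ± 19.1 (SD, n = 3 libraries each; limma log2 fold change -1.14, SE 0.25, adjusted p = 0.0236). The call was lost when OP 2, OP 3, HFD 2 or HFD 3 was omitted (adjusted p up to 0.114).

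PERM-2 and PERM-4 are vitelline layer proteins whose loss leaves the egg permeable. Their genes are direct neighbours on chromosome IV, with perm-4 on the minus strand at 1121494 to 1125107 (WBGene00016638, 4 exons, 331 codons) and perm-2 on the plus strand at 1126790 to 1128865 (WBGene00016636, 5 exons, 203 codons). They point away from each other across 1682 bases that hold no other protein-coding gene. Expression of perm-2 was 60.8, 22.5 and 24.995 FPKM in FA, 66.3, 38.8 and 48.2 FPKM in HFD and 177, 212 and 227 FPKM in OP. Expression of perm-4 was 87.1, 34.8 and 40.8 FPKM in FA, 98.1, 71.1 and 89.1 FPKM in HFD and 209, 259 and 273 FPKM in OP. Both genes had a wide gap between the controls and the high-fat libraries, and in both FA replicates 2 and 3 were the lowest of the 9. The fall in HFD was -2.01 on the log2 scale for perm-2 (SE 0.33, adjusted p = 0.00669 in limma) and -1.51 for perm-4 (SE 0.29, adjusted p = 0.0138). Leaving out any 1 library kept the call of perm-2 (adjusted p up to 0.0375), while that of perm-4 was lost when OP 2, OP 3 or HFD 2 was omitted (up to 0.0679).

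Chitin is made at the egg surface by CHS-1, which EGG-3, a phosphatase-like protein without known enzyme activity, holds at the oocyte cortex together with the kinase MBK-2. The gene chs-1 lies on chromosome I at 7554855 to 7559916 (WBGene00000496, plus strand, 1322 codons) and egg-3 on chromosome II at 10882408 to 10884441 (WBGene00009701, minus strand, 555 codons). Expression of chs-1, the lowest of the 10, was 7.69, 3.46 and 6.62 FPKM in FA, 7.97, 6.03 and 7.57 FPKM in HFD and 12.4, 18.99 and 19.4 FPKM in OP. Expression of egg-3 was 10.4, 7.38 and 6.92 FPKM in FA, 10.6, 9.49 and 10.3 FPKM in HFD and 13.4, 22.2 and 23.3 FPKM in OP. The HFD libraries were close together for both genes, and OP replicate 1 stood nearer to HFD than to the other OP libraries. Both fell in HFD, chs-1 by 1.11 on the log2 scale (SE 0.26, adjusted p = 0.0284 in limma) and egg-3 by 0.85 (SE 0.21, adjusted p = 0.0383). Their calls were lost when any 1 HFD library, OP 2 or OP 3 was omitted, with adjusted p up to 0.129 for chs-1 and 0.168 for egg-3.

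EGG-1 and EGG-2 are similar membrane proteins of the oocyte with LDL receptor repeats that are needed for the sperm to enter. Both genes are on chromosome III, egg-1 at 5728180 to 5730159 (WBGene00015083, plus strand, 551 codons) and egg-2 at 7058527 to 7060583 (WBGene00019811, minus strand, 548 codons). As they are near copies, reads may have been shared between them. Expression of egg-1 was 26.4, 12.8 and 15.7 FPKM in FA, 28.1, 21.6 and 22.2 FPKM in HFD and 42.6, 72.0 and 67.4 FPKM in OP. Expression of egg-2 was 8.39, 5.71 and 7.03 FPKM in FA, 9.71, 8.35 and 8.22 FPKM in HFD and 13.7, 21.7 and 21.5 FPKM in OP. The copy with more RNA was egg-1 in every library, by 2.23-fold to 3.31-fold per length, and the 3 controls were above all other libraries for both. In HFD egg-1 fell by 1.28 on the log2 scale (SE 0.26, adjusted p = 0.0186 in limma) and egg-2 by 1.01 (SE 0.19, adjusted p = 0.0141). Neither call held when OP 2, OP 3 or HFD 2 was omitted (adjusted p up to 0.0974 for egg-1 and 0.0823 for egg-2), and that of egg-1 was also lost when HFD 3 was.

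The chondroitin proteoglycans form the inner layer and the matrix around the embryo. CPG-1 and CPG-2 carry chitin-binding domains and act together in the barrier, and CPG-3 has no such domain in the deposited annotation. The genes cpg-1 (4489359 to 4491392, WBGene00000465, plus strand, 584 codons) and cpg-2 (7102092 to 7103990, WBGene00015102, minus strand, 524 codons) are on chromosome III, and cpg-3 (7244937 to 7246295, WBGene00011063, plus strand, 292 codons) is on chromosome I. Expression of cpg-1 was 59.3, 34.5 and 34.7 FPKM in FA, 63.5, 57.7 and 61.7 FPKM in HFD and 95.1, 169 and 166 FPKM in OP. Expression of cpg-2, with a mean of 139.5 FPKM over the 9 libraries the highest of the 10, was 102, 58.9 and 58.7 FPKM in FA, 111, 90.0 and 111 FPKM in HFD and 157, 275 and 292 FPKM in OP. Both had the same shape over the libraries, with a root mean square difference between their centred log2 profiles of 0.06, the smallest of the 45 pairs of members. Expression of cpg-3 was 19.7, 8.66 and 11.3 FPKM in FA, 20.4, 16.7 and 17.6 FPKM in HFD and 30.5, 59.0 and 63.9 FPKM in OP, with OP replicate 1 farther from its group than for any other member. In HFD the 3 genes had log2 fold changes of -1.17, -1.16 and -1.37 (cpg-1, cpg-2 and cpg-3; SE 0.25, 0.27 and 0.31), with adjusted p of 0.0213, 0.0277 and 0.0256 in limma. All 3 calls were lost when OP 2, OP 3, HFD 2 or HFD 3 was omitted, and that of cpg-2 also when HFD 1 was (adjusted p up to 0.107, 0.127 and 0.119).

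Against OP, all 10 members also fell in FA animals, by 2.38-fold for egg-3 to 5.69-fold for perm-2 between the FPKM means, with perm-4 at 4.55-fold and cpg-3 at 3.87-fold. The median log2 fold change was -1.70 and that of all genes tested 0.02. All 10 passed in limma, with adjusted p between 0.00137 and 0.00668, where 9.96% of all genes were called lower and 4.61% higher. The FA libraries lay entirely below OP for all 10, as they did for 17.2% of all genes. All 10 calls were made with any 1 of the 9 libraries left out (adjusted p up to 0.0393), and without OP replicate 1 and FA replicate 1 together the median was -2.23. The comparisons of HFD and of FA with OP share the control libraries, so they are not independent of each other.

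Set against HFD, FA animals differed by the added farrerol. The FA means of the 10 members were lower than the HFD means by 1.21-fold (chs-1) to 1.59-fold (perm-4), with groups that overlapped. In limma 0 of 10 members passed, each with an adjusted p of 1, and voom on the reads also called 0. At an unadjusted p under 0.05 there was 1 member in limma and 3 in voom. Of all genes, 2.5% in limma and 2.46% in voom had one in either direction. The 1 was perm-4 (limma log2 fold change -0.76, 95% interval -1.40 to -0.12, unadjusted 0.0239). Of all genes tested, 0.00679% were called lower and 1.77% were lower at an unadjusted p under 0.05. The intervals of the other 9 members included 0 and reached as low as -1.33 for perm-2 and -0.72 for egg-2. The overlap held for all 10 members, while 3.27% of all genes had FA entirely below HFD. FA replicate 2 lay below every HFD library for 10 of 10 members and FA replicate 3 for 9 of 10, the exception being chs-1, whereas FA replicate 1 lay inside the HFD range for all 10. Without FA replicate 1 the median log2 fold change was -0.75 in place of -0.47, and 0 members passed in limma (smallest adjusted p = 0.174). In that fit 7 members had an unadjusted p under 0.05. Of all genes 7.61% had one there in either direction, against 2.5% with all 9 libraries. Without FA replicate 2 the median was -0.27, and 0 members had an unadjusted p under 0.05 when FA 2, FA 3, HFD 1 or HFD 3 was omitted.

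**Figure D2:**
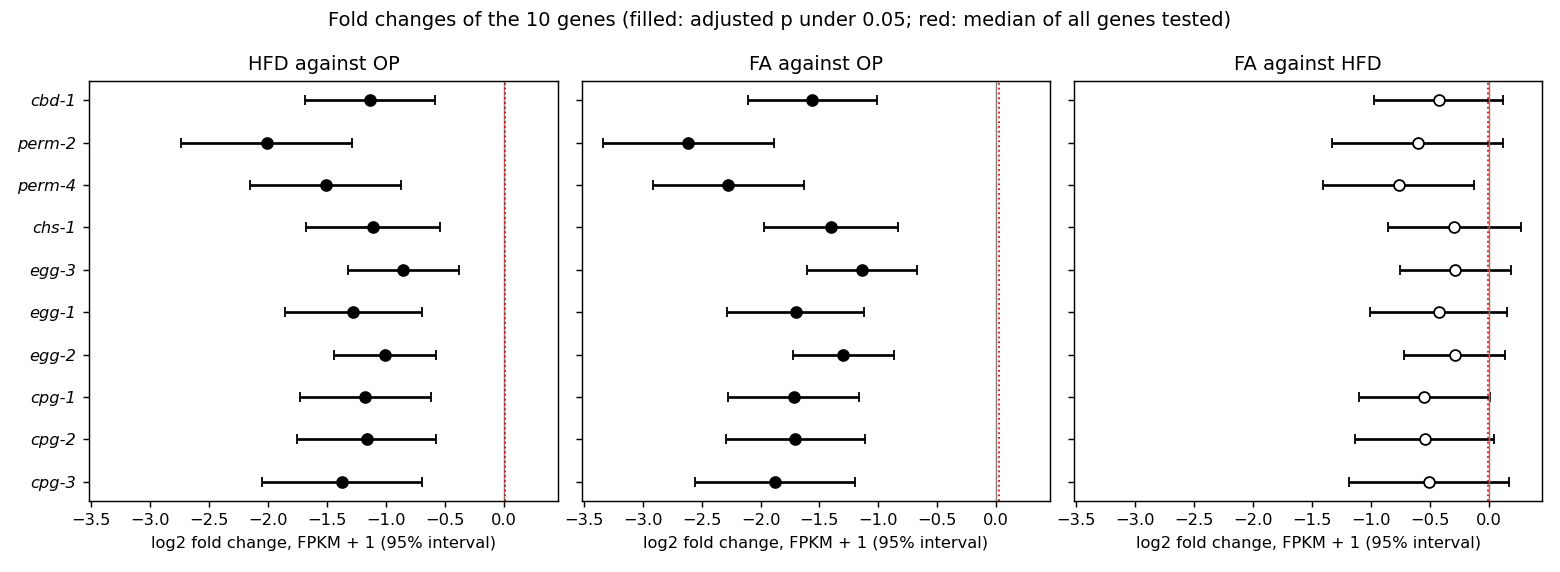
Log2 fold changes of FPKM + 1 (horizontal axis) with 95% intervals from limma for the 10 genes in HFD against OP, FA against OP and FA against HFD. Filled points passed an adjusted p of 0.05 and the dotted red line is the median of all genes tested; all 10 genes are filled in both comparisons with OP and open in FA against HFD, and perm-2 lies lowest in both comparisons with OP.

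The order of the levels was compared within each group. In OP the highest means were 247 ± 33.5 FPKM for perm-4, 241 ± 73.7 for cpg-2 and 205 ± 25.5 for perm-2 (SD, n = 3), 3 genes whose ranges overlapped from neighbour to neighbour, and perm-2 was above cpg-1 in all 3 libraries without overlap. The first place of perm-4 rested on OP 1, where it was at 209 FPKM and cpg-2 at 157, while cpg-2 was the higher in OP 2 and OP 3. In FA and in HFD cpg-2 led in all 6 libraries, with means of 73.2 ± 24.9 FPKM in FA and 104 ± 12.02 in HFD, perm-4 was next with 54.3 ± 28.6 and 86.1 ± 13.7 FPKM, and perm-2 stood below cpg-1 in 2 of 3 libraries of each group. The lower end was egg-3, egg-2 and chs-1 in all 3 groups. At those lower ranks the ranges of egg-3 and egg-2 overlapped in each group, and those of egg-2 and chs-1 overlapped in FA and OP but not in HFD. Together perm-2 and perm-4 made up 35.1%, 27.3% and 28.6% of the summed FPKM of the 10 genes in FA, 35.6%, 31.2% and 33.6% in HFD and 47.5%, 38.9% and 40.4% in OP.

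Ratios between members within a library do not depend on how that library was scaled. The ratio of perm-2 to egg-3, the members with the largest and smallest changes and so chosen after their values were seen, was 5.83, 3.05 and 3.61 in FA, 6.26, 4.09 and 4.69 in HFD, and 13.2, 9.57 and 9.75 in OP. The controls did not overlap the other groups. The ratio of the neighbours perm-4 to perm-2 was 1.43, 1.55 and 1.63 in FA, 1.48, 1.83 and 1.85 in HFD and between 1.18 and 1.22 in OP, where the controls lay below all other libraries. The ratio of egg-1 to egg-2 was 3.15, 2.24 and 2.23 in FA, 2.90, 2.59 and 2.70 in HFD and 3.10, 3.31 and 3.14 in OP, and here FA overlapped OP. An exact two-sided permutation test over the libraries gave p = 0.1 for each ratio in HFD against OP, the smallest p that 3 libraries against 3 allow (adjusted p = 0.18 over 9 tests), so none of these ratios could pass. In FA against HFD the exact permutation p was 0.3 to 0.6.

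**Figure D3:**
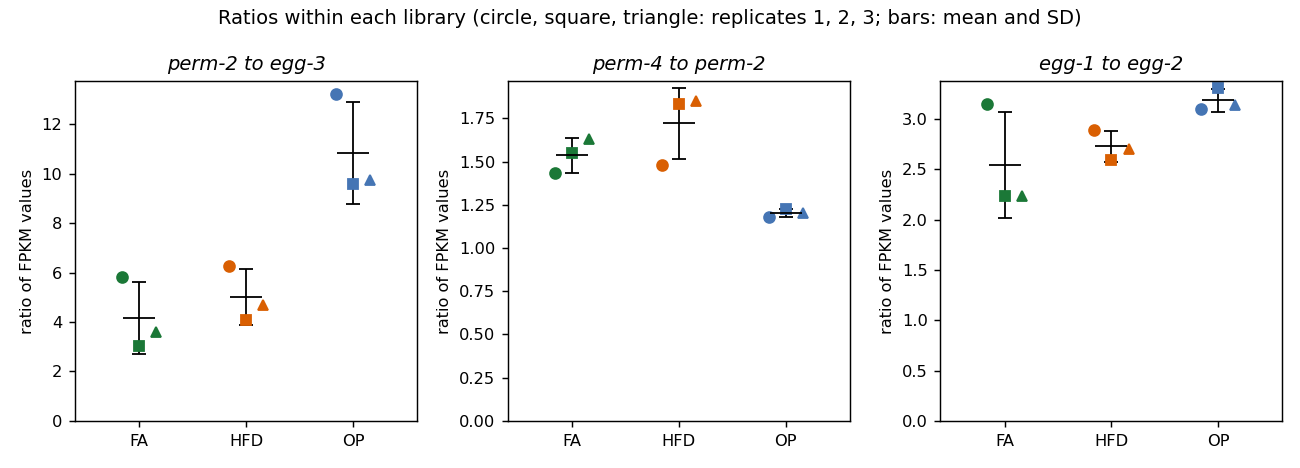
Ratio of FPKM values (vertical axis, linear from 0) within each library for perm-2 to egg-3, perm-4 to perm-2 and egg-1 to egg-2 in FA, HFD and OP. Symbols are replicates 1, 2 and 3 and bars the mean and SD of 3 libraries; the perm-2 to egg-3 ratio is highest in OP (9.57 to 13.2) and the perm-4 to perm-2 ratio lowest in OP (1.18 to 1.22).

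Other genes of the same pathways were counted in lists. In HFD 3 of 8 chitin genes, 1 of 10 partners at egg activation and 0 of 9 chondroitin synthesis genes were called lower in limma. So were 2 of 6 other cpg genes and 1 of 9 barrier genes, against 4.62% of all genes. In FA against OP the counts were 4, 3, 1, 3 and 4 in that order, against 9.96%. Both chitin counts include cht-3, whose call is no support for the list, as described below. The lists were chosen with earlier results known and were not tested as sets. Among 8 genes of chitin and its precursors, 3 fell and 0 rose in HFD, with a median log2 fold change of -0.20. These were gfat-2, for the enzyme that starts hexosamine synthesis (17.9 ± 5.87 FPKM in FA, 23.7 ± 4.63 in HFD and 52.8 ± 13.1 in OP; limma adjusted p = 0.0255 in HFD against OP), gna-2, for the acetyltransferase that follows it in the supply of eggshell chitin (11.6 ± 2.32, 13.6 ± 0.67 and 24.8 ± 6.79 FPKM in FA, HFD and OP, adjusted p = 0.0478), and the chitinase family gene cht-3 (1.03 ± 0.87, 1.11 ± 0.56 and 4.84 ± 0.33 FPKM in FA, HFD and OP, adjusted p = 0.0163). Of these cht-3 was at 1 FPKM or more in the 3 OP libraries but in only 1 FA and 1 HFD library, so it passed the filter on low values through the group where it was high, and its call is no support for the list. The other hexosamine gene gfat-1 had a log2 change of -0.21, which did not pass in HFD (adjusted p = 0.312). The chitin synthase gene chs-2, which serves the pharynx and is named here after its values were seen, was at 7.16 ± 2.91 FPKM in FA, 6.68 ± 0.75 in HFD and 7.06 ± 1.505 in OP, a log2 fold change of -0.06 in HFD with an adjusted p of 0.923. In FA against OP 4 of the 8 fell and 0 rose, 2 when OP 2 was omitted. Both of these counts include cht-3 (limma adjusted p = 0.00656), whose call is no support there either. The HFD calls of this list were 0 when OP 2, OP 3 or HFD 2 was omitted, 1 when HFD 3 was, and 2 or 3 when any other library was.

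Among 10 partners at egg activation, 1 fell in HFD and 0 rose (median -0.24), and 3 fell in FA against OP (1 when OP 2 was omitted). The gene called in HFD was egg-5, for a phosphatase-like partner of EGG-3 and MBK-2, at 7.23 ± 1.93 FPKM in FA, 9.0 ± 1.25 in HFD and 18.6 ± 4.60 in OP (limma adjusted p = 0.0276 in HFD). Its near copy egg-4, with which it may share reads, was at 8.30 ± 2.601, 10.2 ± 1.13 and 17.0 ± 3.10 FPKM in FA, HFD and OP (adjusted p = 0.0766 in HFD and 0.0115 in FA against OP, the second 0.0589 when OP 2 was omitted). The changes of egg-6 and of sep-1, the separase needed for cortical granule release, in HFD were -0.34 and -0.36 on the log2 scale, and neither passed (adjusted p = 0.191 and 0.227). In HFD the call of egg-5 was lost when any 1 HFD library, OP 2 or OP 3 was omitted (adjusted p up to 0.133), and 2 partners were called when FA 1 was.

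Of 9 genes of chondroitin synthesis, 0 passed in HFD in limma and 3 had an unadjusted p under 0.05, as 21.9% of all genes did, with changes between -0.37 and 0.01 and a median of -0.16. The lowest p was that of sqv-4, the UDP-glucose dehydrogenase (log2 fold change -0.32, adjusted p = 0.131), which was also the 1 gene of the list that fell in FA against OP (adjusted p = 0.0152, and 0.0702 when OP 2 was omitted; 2 genes fell when OP 1 was). The chondroitin synthase gene sqv-5 had a log2 change of -0.37 (adjusted p = 0.154), against -1.17 and -1.16 for the proteoglycan genes cpg-1 and cpg-2. Of 12 other cpg names, 8 were found in the table and 6 tested. Of those 6, 3 fell in FA against OP, but 1 when FA 2, FA 3, OP 2 or OP 3 was omitted and 2 when OP 1 was. In HFD 2 of the 6 fell. These were cpg-7 (237 ± 80.6 FPKM in FA, 255 ± 41.6 in HFD and 506 ± 8.60 in OP, adjusted p = 0.0313) and cpg-22 (15.4 ± 5.89, 14.0 ± 4.55 and 32.0 ± 1.37 FPKM in FA, HFD and OP, adjusted p = 0.0309), and both calls were lost when any 1 OP library, HFD 2 or HFD 3 was omitted (adjusted p up to 0.123). In these, unlike in the 10 members, OP replicate 1 lay with the other controls, at 509 FPKM beside 497 and 514 for cpg-7.

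Of 9 genes of the barrier's lipids and other perm genes, 1 fell in HFD and 0 rose (median -0.48), and 4 fell in FA against OP, but 1 when FA 2, FA 3, OP 2 or OP 3 was omitted. In HFD 3 were called when OP 1 was omitted. The cytochrome P450 gene cyp-31A2 was at 6.24 ± 0.91 FPKM in FA, 7.75 ± 0.74 in HFD and 13.5 ± 2.70 in OP (limma adjusted p = 0.0329 in HFD, lost when any 1 HFD library, OP 2 or OP 3 was omitted, up to 0.158). Its near copy cyp-31A3 and the acyltransferase gene dgtr-1 had changes of -0.48 and -0.56 on the log2 scale, and neither passed in HFD (adjusted p = 0.0865 and 0.0788). The gene perm-1 was at 6.21 ± 1.81 FPKM in FA, 6.99 ± 1.20 in HFD and 12.4 ± 3.85 in OP, and it passed in FA against OP (limma adjusted p = 0.0393, lost when FA 2, FA 3, HFD 1, HFD 2, OP 2 or OP 3 was omitted, up to 0.154) but not in HFD (log2 fold change -0.71, adjusted p = 0.121). The lipid synthesis genes pod-2 and fasn-1, which serve the whole animal and are named here after their values were seen, had changes of -0.51 and 0.25 in HFD, neither of which passed (adjusted p = 0.132 and 0.365).

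Markers of the germline and of other tissues were counted in the same way. Of 11 oocyte and maternal RNA markers, 8 fell in HFD and 0 rose, with a median of -0.83, led by the maturation regulator oma-2 (-1.30) and the RNA-binding genes puf-5 (-1.45), pos-1 (-1.10) and puf-11 (-1.11), with adjusted p of 0.00787, 0.0164, 0.0179 and 0.0198 in limma. Their summed level was 305 to 465 FPKM in FA, 396 to 511 in HFD and 617 to 926 in OP, lowest in OP replicate 1 among the controls and highest in FA replicate 1 among the FA libraries, as for the members. In FA against OP 10 of the 11 fell. The number called in HFD was 1 when OP 2, OP 3 or HFD 2 was omitted, 4 when HFD 3 was, and 6 to 9 when any other library was. The part of these markers in the result was not tested.

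Of 8 markers of mitotic and meiotic germ cells, 0 passed in limma in HFD or in FA against OP, where 0 and 1 had an unadjusted p under 0.05, against 21.9% and 27.7% of all genes. Their medians were -0.07 and -0.04, and the summed level was 258 to 329 FPKM in FA, 296 to 304 in HFD and 251 to 349 in OP. Of 9 sperm markers 3 fell in HFD and 6 in FA against OP (summed level 171 to 352 FPKM in FA, 285 to 319 in HFD and 433 to 574 in OP). The sperm counts were 0 in HFD and 3 in FA when OP 2 was omitted, 1 in HFD when HFD 1, HFD 2 or OP 3 was, and 5 in HFD when FA 1 was. Of 7 markers of the gonadal sheath and spermatheca 1 fell in both, the gap junction gene inx-8 (11.4 ± 2.38, 12.05 ± 0.904 and 23.7 ± 0.991 FPKM in FA, HFD and OP), whose HFD call was lost when OP 2 was omitted (limma adjusted p = 0.0537). Zygotic genes of the early embryo were not tested, as none reached the filter, and their 9 values summed to 0.398 to 1.49 FPKM in any library, with pes-10 listed at 0 in all 9.

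Yolk genes, made in the intestine of adults and taken up by oocytes, also fell in HFD: 6 of 6 were called, with a median of -3.56, and their summed level was 33.6 to 332 FPKM in FA, 74.0 to 417 in HFD and 1417 to 2178 in OP. The HFD count was 0 when OP 2 or HFD 2 was omitted, 1 when OP 3 or HFD 3 was, 2 when OP 1 was, and 6 when any other library was. The highest FA and the highest HFD library were replicate 1 of each group. In the hypodermis list 1 of 4 fell, the collagen gene col-19, known as a marker of the adult cuticle (75.1 ± 55.4, 99.4 ± 62.5 and 900 ± 150 FPKM in FA, HFD and OP; log2 fold change -3.32 in HFD, limma adjusted p = 0.00361, called with any 1 library left out). The list as a whole did not fall in HFD, with a median of 0.06. Its genes dpy-7 and rol-6 had log2 fold changes of 0.76 and 0.23, and lin-26 had -0.11. None of these passed in limma (adjusted p = 0.0837, 0.562 and 0.784). Of the markers of intestine (5), body wall muscle (4), neurons (4) and pharynx (3), 0 were called in HFD in limma, with list medians between 0.08 and 0.42. Only 1 of them, the neuron gene rab-3, had an unadjusted limma p under 0.05, as 21.9% of all genes did. In FA against OP 1 gene of these 4 lists was called, rab-3, a synaptic vesicle GTPase gene, which was higher in FA (19.98 ± 1.36 FPKM in FA and 12.5 ± 3.18 in OP; log2 fold change 0.66, limma adjusted p = 0.0278). That call was lost when FA 2, FA 3, OP 2 or OP 3 was omitted (adjusted p up to 0.125), and 1 pharynx gene was called higher when FA 1 was. In FA against HFD 0 genes of any list were called in limma, and 1, oma-1, had an unadjusted p under 0.05, as 2.5% of all genes did. When OP 1 was omitted, 1 neuron gene and 1 hypodermis gene, dpy-7, were called higher in HFD. The part of yolk and tissue markers in the members' result was not tested.

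**Figure D4:**
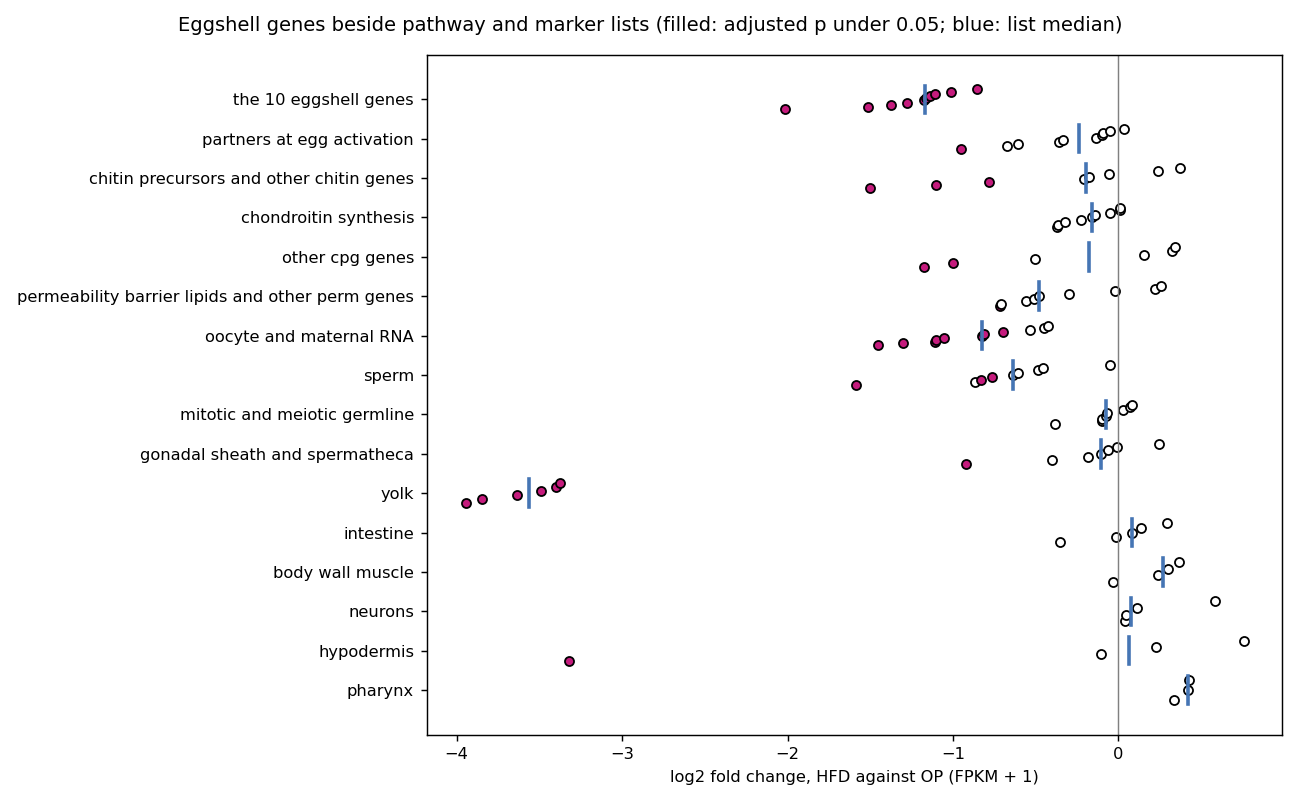
Log2 fold changes of FPKM + 1 in HFD against OP (horizontal axis) for the 10 eggshell genes and for each tested gene of the pathway and marker lists, 1 point per gene. Filled points passed an adjusted p of 0.05 in limma and blue bars are list medians. The eggshell genes (-2.01 to -0.85) overlap the oocyte markers (-1.45 to -0.42) and the sperm markers (-1.59 to -0.05). All lie below the medians of these lists (-0.83 and -0.64) and of the mitotic and meiotic germline genes (-0.07). The yolk genes lie lower (median -3.56).

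The genes most like the members were found by the root mean square difference between a gene's log2(FPKM + 1) profile over the 9 libraries, centred on its mean, and the mean centred profile of the 10 members. Among 9894 other protein-coding genes with a mean of at least 5 FPKM the median difference was 0.81. The closest was T01C3.3, a gene annotated with a RING finger domain, at a difference of 0.09 (19.5, 9.48 and 9.18 FPKM in FA, 18.1, 14.7 and 17.1 in HFD and 29.4, 52.5 and 49.0 in OP). The next were rme-2, the yolk receptor gene of the oocyte (0.10), gfat-2 (0.11), pos-1 (0.11) and rmd-1, a regulator of microtubule dynamics (0.12). Among the members themselves egg-1 and cpg-1 were closest to the mean profile, at 0.05 and 0.09, and perm-2 was farthest, at 0.44, with 569 of the other genes closer. Each member is part of that mean profile, which makes its own difference smaller than that of an outside gene. All pairs of members differed by 0.06 to 0.70, the largest difference being between perm-2 and egg-3.

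**Figure D5:**
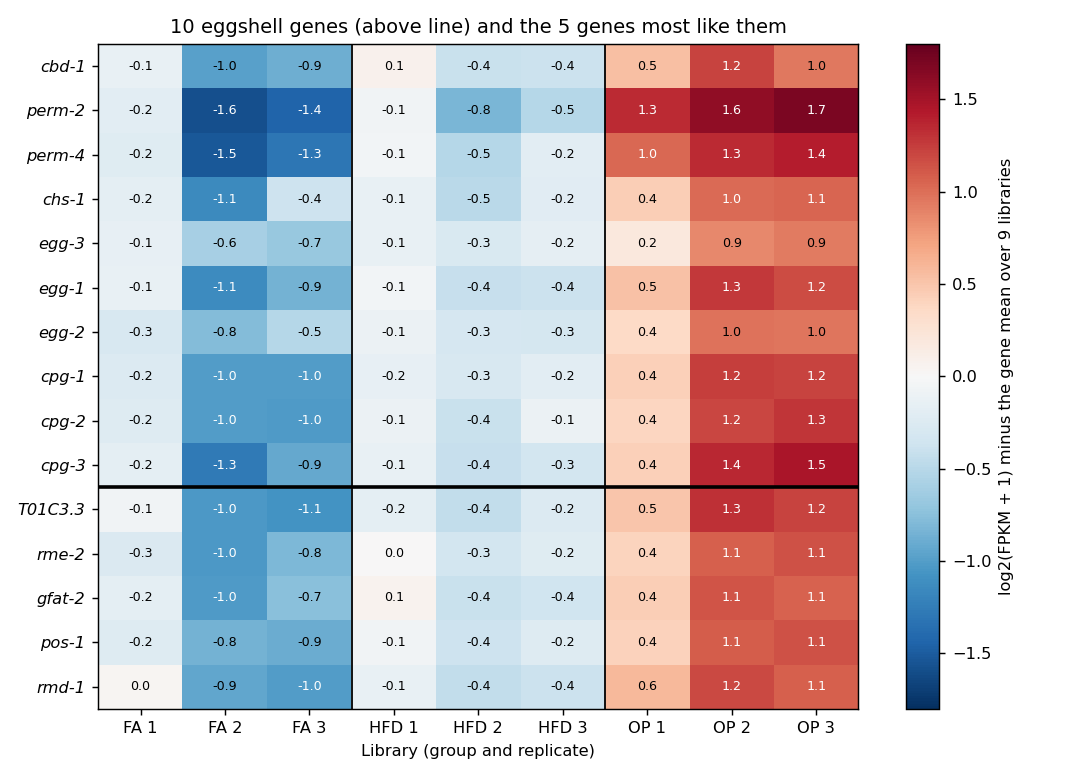
Log2(FPKM + 1) minus the gene's mean over the 9 libraries (colour and printed value) for the 10 eggshell genes, above the black line, and the 5 most similar genes, below it, in FA, HFD and OP libraries. Every gene is positive in the 3 OP libraries and lower in OP replicate 1 than in the other OP libraries, FA replicates 2 and 3 are the lowest columns for most genes, and FA replicate 1 has values like those of HFD.

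At the members' positions 5 of the 10 overlap another protein-coding gene at an end. The shared stretch was 21 to 42 bases for perm-2, egg-3 and egg-1, 78 for chs-1 and 221 for cpg-3, whose partner R06C7.6 lies on the opposite strand and was at 1.66 to 4.30 FPKM. The partner of chs-1, T25G3.3, on the same strand, was at 48.0 to 53.0 FPKM in all 9 libraries, so reads counted for chs-1 there could have come from it. The sources used here do not say whether reads were counted by strand.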

How the data were processed

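The authors deposited FPKM values in 1 table with a row for each of 46986 genes, including each gene's name and position, per the file headers. Per the submitters' processing notes, reads were placed on WBcel235. Aligner, counter and strand setting were not given in the sources used here. RNA was isolated with chloroform and made into libraries with an NEBNext Ultra II kit, per the labels' protocols. The control columns are named OP50 and were matched by number to the samples titled OP. FPKM was multiplied by gene length, and the smallest product above 0 in each library was taken as 1 read. Dividing by it gave whole reads for 100% of values above 0 (tolerance 0.01 of a read). These were the reads used for depth and voom, and the library sizes given here rest on the same step. The size that FPKM was scaled to differed from the sum of these reads. It was 1.7748e+07 against 20056071 reads in FA 2 and 2.30479e+07 against 20166991 in FA 3. As voom was given these same sizes, it does not check the scaling. At 1 kilobase 3 reads equal 0.13 to 0.179 FPKM; counting intervals would cover counting error only. Replicates differed by more than sampling noise (chi-square 18.0 to 82.7 per gene). The 52 rows without a gene name, 0.0184% to 0.0293% of reads, were left out of the tests. The table held 0 other per-sample columns. Positions were compared with Ensembl release 115 (46924 identifiers found, 99.82% at the same position), which also gave exons and coding lengths.

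The test was limma 3.58.1 (R 4.3.3), fitted to log2(FPKM + 1) of all 9 libraries as 3 group means with a mean-variance trend, for genes with 1 FPKM or more in 3 or more libraries. Fold changes are on that scale, which understates those of low genes. Tests were two-sided, with Benjamini-Hochberg adjustment over the 14730 genes tested and a threshold of 0.05. The rule for named genes took all members, up to 4 genes with the lowest p of each pathway list, and the 5 most similar genes; chs-2, pod-2, fasn-1 and the marker genes named were chosen after their values were seen. Members and lists were chosen with earlier results of these data known; a list is described by counts and median, without a test. Alternatives were other pseudocounts, filters, scalings and fits, voom, the replicate number as a block, and each library left out. No sequences were used here.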

Additional observations from a re-analysis of the deposited data

How the results depend on the processing

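In HFD against OP, 10 of 10 members were called under pseudocounts of 0.1 and 5, a filter at 5 FPKM, upper quartile scaling, quantile normalization, a fit of only the groups compared, robust moderation and voom on the recovered reads. Without a filter on low values 2 were called (log2 median -1.17, adjusted p up to 0.0957; 23638 genes tested), and the cause was not tested. With each library left out in turn the count ran from 1 to 10 and the median from -1.45 to -1.04; the share of all genes called lower ran from 0.761% to 6.83% in the same fits, and the cause was not tested. In FA against OP all 10 were called under every alternative, with medians of -1.97 to -1.53 with 1 library left out and of -2.23 without OP replicate 1 and FA replicate 1 together, an alternative added after seeing the data. In FA against HFD 0 were called under every alternative, and medians ran from -0.75 to -0.27 with 1 library left out. No member changed its direction under any alternative run. For chs-1 in FA against HFD, however, the log2 fold change was only -0.0013 when FA 2 was omitted.

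With the replicate number as a block, 7 members were called in HFD against OP in place of 10 (cpg-2, cpg-3 and egg-3 were lost, adjusted p of 0.0586, 0.0546 and 0.0779), 10 in FA against OP and 0 in FA against HFD. Libraries with the same number deviated together in 3 of 9 pairs (correlation over 0.1; range -0.23 to 0.30), so the numbers were not taken as pairs, and 7 of 18 comparisons matched a library best with its own number. Each member had 158 or more reads in every library, and 3 libraries a group limit the precision.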
